A study of Mus musculus with 6 samples.

Results

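The nuclear pore complex genes were read in mRNA sequencing of Pdx1-Cre lineage cells from mouse embryos at E10.5. They were selected by gene symbol: every listed gene whose symbol is Nup followed by a number, together with Nup210l, Nup50l, Nup58, Nup42, Pom121, Ndc1, Tpr, Seh1l, Sec13, Aaas, Rae1, Ranbp2 and Ahctf1. This selected 31 of the 55414 genes listed, 30 of which had enough counts to be tested, while Nup50l matched no listed gene. The set was chosen by symbol, but it was taken up because Pom121 was known from these same libraries to be among the strongest rising genes, so the values of Pom121 are given as a description and counts are given with and without it.

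The series compared 3 WT libraries (genotype Pdx1-Cre+, Tdtomato+, miR-302WT) with 3 KO libraries (Pdx1-Cre+, Tdtomato+, miR-302KO), and asked how gene expression in the pancreatic progenitors changes when the miR-302 microRNAs are lost. Both genotypes carried the Pdx1-Cre transgene and the tdTomato reporter, so tdTomato marks cells in which the Pdx1 promoter has driven Cre and their descendants, whereas the miR-302 cluster was deleted in the whole embryo. Cells were sorted from the trunk, cDNA was made from polyadenylated RNA with SMART-seq v4, and Nextera XT libraries were sequenced. The labels do not say that each library came from a different embryo, and p-values therefore measure only the spread between these libraries.

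The nuclear pore complex is the channel through which proteins and RNA pass the nuclear envelope. A scaffold of Y complexes and an inner ring lines the opening, membrane proteins anchor it in the envelope, and nucleoporins rich in phenylalanine-glycine (FG) repeats fill the channel and bind transport receptors. Dividing cells must build new pores in every interphase, and some nucleoporins also bind chromatin.

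Total counts per library ran from 17352498 to 26634523, and 16353 genes were tested. The hairpins of the miR-302 cluster had 0 counts in every library except for 2 counts of Mir302d in KO replicate 3, and small RNA hairpins are not what a polyadenylated RNA library captures, so the deletion could not be checked here. Larp7, whose intron holds the cluster, had 75.2, 52.7 and 61.9 counts for each 1000000 of the library (CPM) in WT and 64.3, 57.7 and 63.6 CPM in KO. The progenitor gene Pdx1 lay between 73.1 and 108 CPM in all libraries, and the summed level of 10 progenitor markers lay between 1023 and 1275 CPM. Markers of other cells were present too: 8 blood markers summed to 15940 CPM in WT replicate 3, to 6379 in KO replicate 1, to 336 in KO replicate 3 and to under 3 CPM in the other libraries, and 8 mesenchyme markers summed to between 117 and 1181 CPM. The summed levels ran from 1002 to 1382 CPM for gut endoderm markers, from 1093 to 5626 for endocrine, from 506 to 1709 for liver, from 19.4 to 38.7 for neural and from 1.48 to 24.4 for endothelial markers. None of the blood markers was at 0 in every library. DESeq2 called 2 markers, beside 4.87% of all the genes it tested. They were the progenitor and gut transcription factor genes Gata4 (log2 fold change 0.63, edgeR adjusted p 0.14, DESeq2 adjusted p 0.00092) and Gata6 (1.33, edgeR adjusted p 0.132, DESeq2 adjusted p 3.5e-05), both higher in all KO libraries. The most GC-rich 200 bases of their transcripts, a feature taken up below, were 77.0% and 79.0% GC. Other markers with so rich a stretch went either way, such as Foxa1 (87.0%, log2 fold change 0.51) and Hhex (77.5%, −0.57). In such bulk libraries fewer cells of a type and less RNA per cell cannot be told apart.

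All levels below are CPM after TMM scaling, in the order of replicates 1, 2 and 3 of each genotype, and fold changes are KO over WT from edgeR's quasi-likelihood test.

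Pom121 encodes a transmembrane nucleoporin that anchors the pore in the nuclear envelope and acts early in the assembly of new pores in interphase. Its level was 14.3, 20.1 and 14.5 CPM in WT and 59.9, 45.9 and 42.3 CPM in KO. The genotypes did not overlap, and the lowest KO value lay well above the highest WT value. The means were 16.3 ± 3.25 and 49.4 ± 9.29 CPM (SD over 3 libraries), a log2 fold change of 1.60 (SE 0.20), or 3.03-fold. Behind these levels lay 299 to 359 counts per WT library and 778 to 1607 per KO library, so counting error was small beside the spread between libraries. By size of rise Pom121 stood at place 179 of the genes tested. The names of the libraries begin with either of 2 codes whose meaning is not given in the sources used here. WT replicates 1 and 2 and KO replicate 1 shared 1 code, and WT replicate 3 and KO replicates 2 and 3 the other. With the code as a term the log2 fold change was 1.70. Without the libraries that held over 1000 CPM of blood markers, WT replicate 3 and KO replicate 1, it was 1.38.

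The sequence of Pom121 is shown because its transcript holds the most GC-rich stretch of 200 bases among the 30 tested pore genes. This stretch was 82.5% G or C, with that of Nup153 next at 80%. It lies at bases 5 to 204 of the coding sequence, in exon 1, at chr5:135394302-135394501 on the minus strand of GRCm38 (GENCODE release M21, while the counts were made on GRCm39). It is given 5′ to 3′ on the coding strand, with capitals marking runs of 6 or more G or C, which cover 105 of the 200 bases, and it holds 34 CpG dinucleotides.
Pom121, coding bases 5 to 204: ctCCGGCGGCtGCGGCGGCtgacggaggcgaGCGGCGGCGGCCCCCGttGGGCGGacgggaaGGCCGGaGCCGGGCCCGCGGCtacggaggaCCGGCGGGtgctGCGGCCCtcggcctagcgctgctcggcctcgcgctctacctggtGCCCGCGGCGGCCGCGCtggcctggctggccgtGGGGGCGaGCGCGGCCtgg

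Across these libraries, genes with such a stretch had higher values in KO. Of the 16255 genes tested with a transcript of at least 200 bases, 19.4% had a stretch of that length with at least 75% GC, and the median log2 deviation of these 3146 genes from their mean over the libraries was −0.11, −0.003 and −0.11 in WT and 0.12, 0.09 and 0.09 in KO. Their median log2 fold change was 0.14, against −0.02 over all genes tested. With offsets that remove a smooth trend of counts on the GC of this stretch in each library, the log2 fold change of Pom121 was 1.25, and with offsets for the GC of the whole transcript it was 1.57. The part of the GC trend in the level of Pom121 was not tested further. Exons of Pom121 also overlap those of Nsun5 on the opposite strand, by 665 of 5580 exon bases (11.9%), and these libraries do not mark strand. Nsun5, an RNA methyltransferase gene, stood at 47.1, 41.8 and 39.1 CPM in WT and at 44.7, 43.8 and 47.2 CPM in KO, with overlapping genotypes and a log2 fold change of 0.08. Of the genes related to Pom121, Pom121l2 had at most 0.437 CPM and Pom121l12 had 0 counts in every library.

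Pom121 belongs to the membrane ring together with Ndc1, Nup210 and Nup210l, and the fold changes of the other members of the ring were below 0. Ndc1, which spans the membrane and holds Aaas at the pore, was at 149 CPM in WT replicate 1, 139 in replicate 2 and 154 in replicate 3, against 135, 120.3 and 149.9 CPM in KO (log2 fold change −0.13). Nup210, a glycoprotein of the ring, was at 189, 233 and 229 CPM in WT and 142, 178 and 253 CPM in KO. Its genotypes overlapped, since KO replicate 3 was the highest of all (log2 fold change −0.18, SE 0.20). Nup210l, a paralog best known from testis, was barely expressed, at 2.78, 2.74 and 5.0 CPM in WT and 2.72, 1.48 and 2.56 CPM in KO. Its highest KO value lay just under its lowest WT value, and the log2 fold change of −0.63 (SE 0.37) had an adjusted p of 0.648. None of the 3 passed edgeR's test, which no gene passed (0% of 16353).

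**Figure D1:**
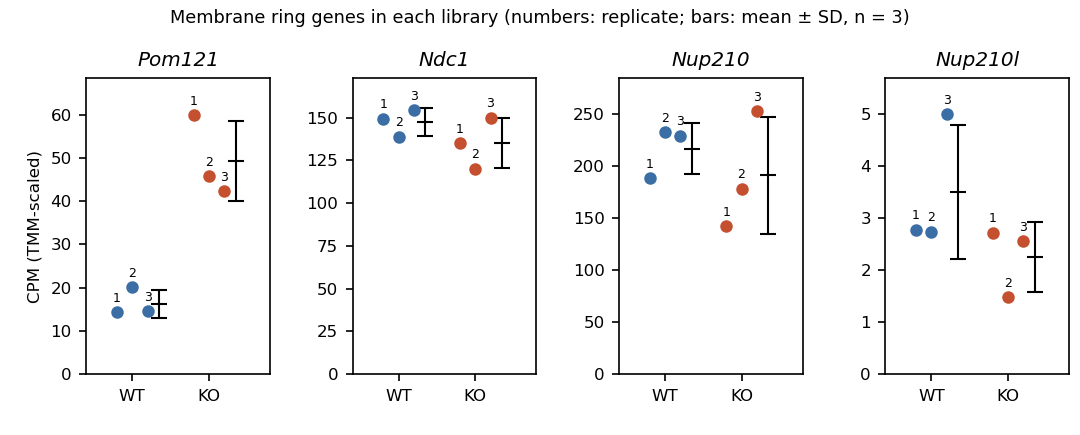
Level of the membrane ring genes Pom121, Ndc1, Nup210 and Nup210l in each library, in TMM-scaled CPM on axes that start at 0, with blue points for WT and red points for KO, numbered by replicate, and bars for the mean ± SD (n = 3). Pom121 is the one gene of the ring whose KO libraries all lie above its WT libraries, at 42.3 to 59.9 against 14.3 to 20.1 CPM.

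Set against transcript length, the make-up of the ring differed between genotypes. Pom121 was 4.11%, 5.33% and 3.73% of the summed level per kilobase of the 4 ring genes in WT, and 17.6%, 13.7% and 9.90% in KO. The share was 4.39% ± 0.836 in WT and 13.7% ± 3.86 in KO (SD, n = 3), and the genotypes did not overlap. Since the share contains the value that drew attention to the set, it is a description with no test. Pom121 remained the least abundant ring gene but Nup210l in both genotypes, at 2.92 ± 0.583 CPM per kilobase in WT and 8.85 ± 1.66 in KO, beside 32.2 ± 1.75 and 29.5 ± 3.23 for Ndc1.

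Over the whole set, 11 of the 30 tested genes had a log2 fold change above 0 and 19 below, beside 45.6% above 0 over all genes tested, and without Pom121 it was 10 of 29. The median was −0.06 with and without Pom121, beside −0.02 over all genes. By edgeR's adjusted p no pore gene was called, as was no gene at all (0% of 16353). At an unadjusted p under 0.05 there were 4 pore genes, Pom121 above and Ranbp2, Nup205 and Nup54 below, beside 10.4% of all genes. DESeq2 called Pom121 and no other pore gene, and 4.87% of the genes it tested. Pom121 was the one gene with every KO library above every WT library, a pattern that 8.36% of all genes showed, and 4 (Nup210l, Ranbp2, Nup205 and Nup54) had every KO library below, as had 7.99% of all genes. Among the 3146 tested genes with a GC-rich stretch, to which Pom121 belongs, 753 had every KO library above every WT library. DESeq2 called 485 of those 3146 genes higher, out of 606 called higher over all genes. Nothing is read from these counts, since the set was taken up from this same contrast.

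The other 29 genes had small fold changes. Their log2 fold changes ran from −0.63 to 0.15, and 24 of them were smaller than 0.2 in size. The 95% interval of the fold change lay between −1 and 1 on the log2 scale for 28 of the 29, and between −0.5 and 0.5 for 20, and the highest upper bound of any was 0.52, that of Nup153. A rise of the size seen in Pom121 was therefore outside the interval of each of the other genes. The summed level of the tested pore genes was 4667, 4534 and 4788 CPM in WT and 4354, 4277 and 4927 CPM in KO. The genotypes overlapped, at 4663 ± 127 and 4520 ± 355 CPM (SD, n = 3).

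**Figure D2:**
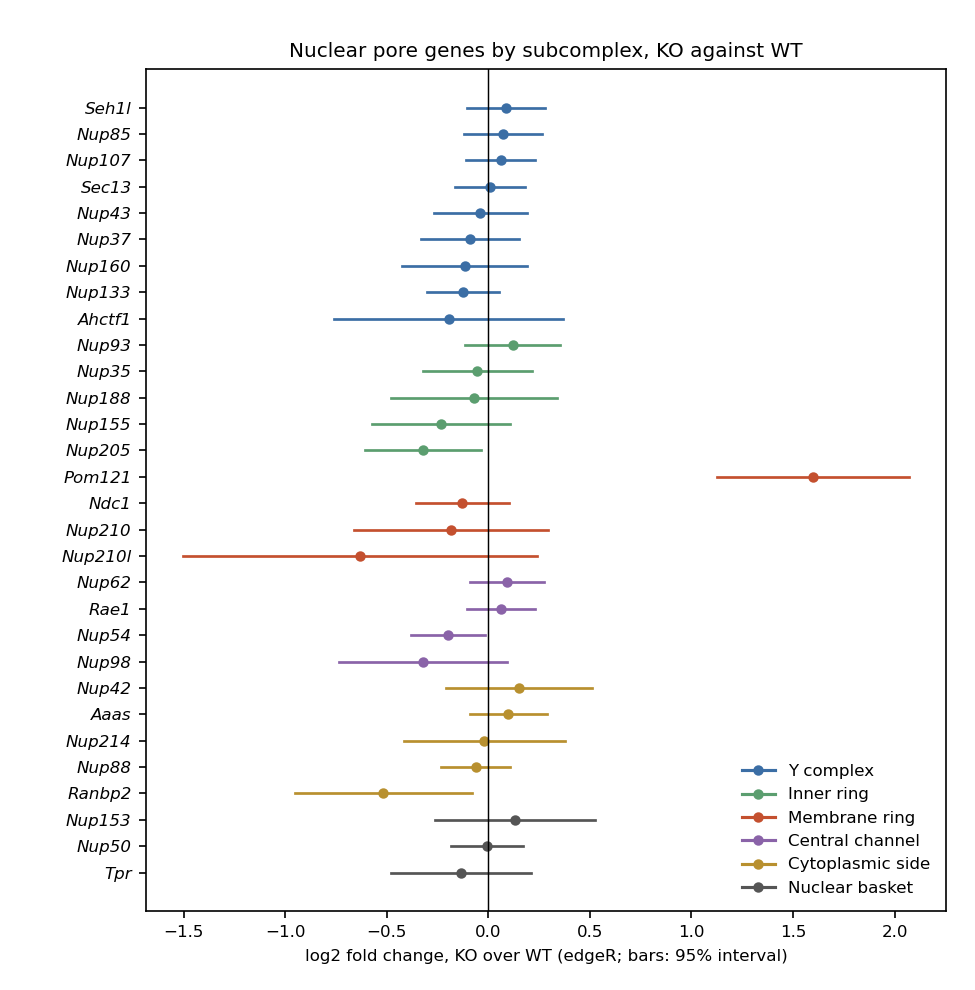
Log2 fold change of each of the 30 tested nuclear pore genes, KO over WT, with 95% intervals from edgeR as bars and colour by subcomplex. Pom121 stands apart at 1.60, and the other 29 genes lie between −0.63 and 0.15.

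The Y complex is the outer scaffold that coats the curved membrane, and its 9 genes had a median log2 fold change of −0.04, with 4 above and 5 below 0. Seh1l, Nup85, Nup107 and Sec13 had values between 0.01 and 0.09, and Nup43, Nup37, Nup160 and Nup133 between −0.13 and −0.04. Sec13, which is also a coat protein of vesicles leaving the endoplasmic reticulum, had 296, 271 and 286 CPM in WT and 285, 293 and 281 CPM in KO, a log2 fold change of 0.01. Its libraries overlapped almost entirely. The largest fold change was that of Ahctf1, or Elys, which binds chromatin and seeds pore assembly after mitosis. It was at 115, 115 and 149.8 CPM in WT and at 88.9, 86.4 and 156 CPM in KO, so that KO replicates 1 and 2 were the lowest of the 6 libraries and KO replicate 3 the highest. The log2 fold change of −0.20 (SE 0.24) was smaller than the spread between the KO libraries, and without the 2 libraries rich in blood markers it was 0.10.

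The inner ring joins the scaffold to the channel, and 4 of its 5 genes were below 0, with a median of −0.07. Nup205, a large scaffold protein of the ring, was at 261, 270.2 and 289 CPM in WT and at 194, 202 and 259 CPM in KO. Each KO library was below each WT library, though KO replicate 3 came within a few CPM of the lowest WT value. The log2 fold change of −0.32 (SE 0.12) had an unadjusted p of 0.031 and an adjusted p of 0.395, and it was −0.18 without the libraries rich in blood markers. Nup155, which links the ring to the membrane, was at 145, 133 and 157 CPM in WT and at 110.3, 108 and 152 CPM in KO (log2 fold change −0.23, adjusted p 0.672). Nup93, which holds the ring's subunits together, was at 284, 238 and 276 CPM in WT and at 294, 265 and 309 CPM in KO, with overlapping genotypes (log2 fold change 0.12). The remaining genes of the ring, Nup188 and Nup35, had log2 fold changes of −0.07 and −0.05.

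The central channel holds the FG nucleoporins Nup62, Nup54, Nup58 and Nup98, and here Rae1, a partner of Nup98 in mRNA export, was counted with them. Nup98 was at 116, 146 and 162 CPM in WT and at 87.3, 127 and 125 CPM in KO. The genotypes overlapped, the log2 fold change was −0.32 (SE 0.18, adjusted p 0.613), and without the libraries rich in blood markers it was −0.03. Nup54, picked out after its values were seen, had closely spaced libraries, at 92.0, 85.5 and 88.9 CPM in WT and 79.2, 73.4 and 79.5 CPM in KO. All of its KO libraries lay below its WT libraries, by a log2 fold change of −0.20 (SE 0.08) with an unadjusted p of 0.035 and an adjusted p of 0.416. Its channel partner Nup62 was at 290.4 to 316 CPM in WT and 309.8 to 336 CPM in KO, with a log2 fold change of 0.09, and Rae1 stood at 0.06.

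Nup58 completes the channel trimer with Nup54 and Nup62, but its listed row held almost no reads, with 0, 2 and 2 counts in WT and 13, 5 and 0 in KO, and it was not tested. In GENCODE release M21 a separate gene model, Gm49336, shares 48.75% of its exon bases on the same strand and carries protein-coding transcripts of this locus. That model had 851, 858 and 1029 counts in WT and 924, 722 and 888 in KO, a log2 fold change of −0.16. Reads from the locus cannot be assigned to either gene from these counts, so no level is given for Nup58.

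On the cytoplasmic side, 2 of 5 genes were above and 3 below 0, with a median of −0.02. Ranbp2 encodes the giant protein of the cytoplasmic filaments, which binds Ran and acts as a SUMO ligase. It was at 140.1, 143 and 160.0 CPM in WT and at 78.9, 96.6 and 135 CPM in KO, so the genotypes did not overlap, but KO replicate 3 was nearer to WT than to the other KO libraries. The log2 fold change of −0.52 (SE 0.18) had an unadjusted p of 0.026 and an adjusted p of 0.364. It ranged from −0.72 to −0.34 as each library was left out in turn, and without the libraries rich in blood markers it was −0.27. With the library-name code as a term it was −0.66.

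The other genes of this face had smaller fold changes. Nup42, a docking site for the mRNA export helicase cofactor Gle1, had 21.6, 21.3 and 20.3 CPM in WT and 25.2, 19.4 and 25.8 CPM in KO, the highest log2 fold change of any member but Pom121 at 0.15 (SE 0.15), with overlapping genotypes. Aaas, the WD-repeat protein mutated in triple A syndrome, had 132, 121 and 117 CPM in WT and 129, 141 and 127 CPM in KO, a log2 fold change of 0.10. Nup88 and Nup214, which together anchor export complexes on this face, had −0.06 and −0.02.

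The nuclear basket reaches into the nucleoplasm, and its 3 genes had a median of −0.01. Tpr, which forms the filaments of the basket, was at 169, 136 and 155 CPM in WT and at 145, 112 and 162 CPM in KO, a log2 fold change of −0.13 (SE 0.15). Nup153, which ties the basket to the ring and binds lamins, was at 78.0, 99.0 and 70.6 CPM in WT and at 94.4, 73.2 and 103 CPM in KO. The libraries of both genotypes interleaved, and its log2 fold change of 0.13 (SE 0.17) became −0.14 with offsets for the most GC-rich stretch. Nup50, a cofactor of importin, was flat at −0.01.

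Grouped by their repeats rather than by place, the 9 tested FG nucleoporins other than Pom121 had a median log2 fold change of −0.02, with 3 above and 6 below 0. The 20 genes without FG repeats had a median of −0.08, with 7 above and 13 below. No gene of either group was called by edgeR, as was no gene at all (0% of 16353).

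Per length of transcript, the pore genes covered a wide range of levels that was much alike in both genotypes. Sec13 was highest, at 210.3 ± 9.53 CPM per kilobase in WT and 212 ± 4.54 in KO, followed in WT by Nup85 at 126 ± 7.91 and Nup88 at 125 ± 1.94, which did not differ beyond their spread. Rae1 at 117 ± 4.41, Nup62 at 110.1 ± 5.27 and Nup93 at 90.8 ± 8.31 came next. The FG and filament genes Nup98, Ranbp2, Nup214 and Nup153 lay between 13.5 and 21.1 CPM per kilobase in WT. At the foot stood Nup42 at 7.24 ± 0.232, Pom121 at 2.92 ± 0.583 and Nup210l at 0.614 ± 0.227. In KO, Pom121 at 8.85 ± 1.66 and Nup42 at 8.04 ± 1.21 changed places, a gap within their spread. The length used was that of 1 annotated transcript of each gene, which need not be the one expressed.

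**Figure D3:**
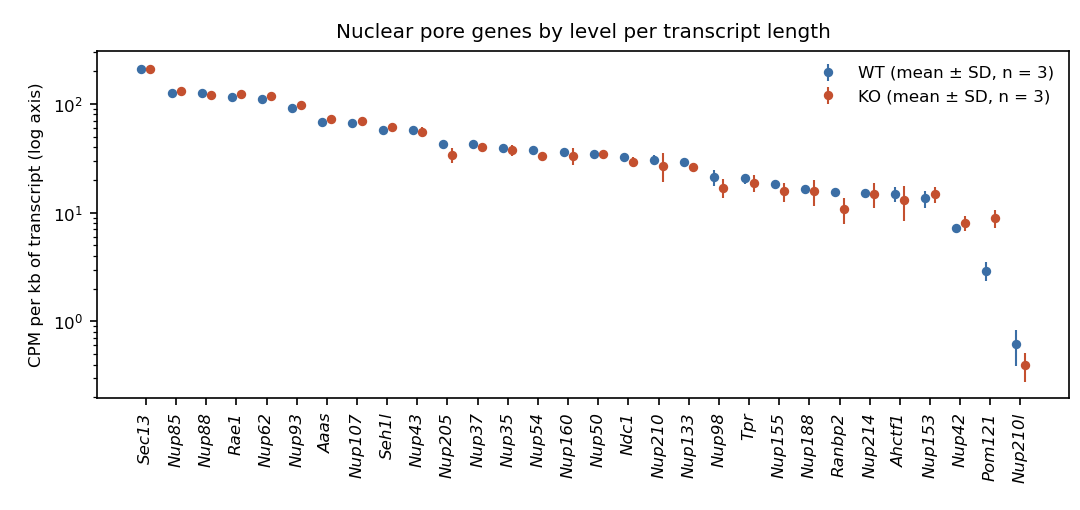
Mean level of the 30 tested nuclear pore genes in CPM per kilobase of transcript on a log axis, in WT (blue) and KO (red), with bars for the SD (n = 3) and genes ordered by their WT level. The order runs from Sec13 at 210.3 to Nup210l at 0.614 in WT, and Pom121 is the gene whose symbols lie farthest apart.

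A pattern within the set followed transcript length, and was looked at after the values were seen. Of the 15 pore genes with transcripts over 4 kb other than Pom121, 14 were below 0 and 1 above, with a median log2 fold change of −0.13. Of the 14 shorter ones, 9 were above 0, with a median of 0.06. The medians over all tested genes went the same way, at −0.05 for transcripts over 4 kb and −0.01 for the rest. Of all 4574 tested transcripts over 4 kb, 2709 were below 0, and of the 11738 shorter ones 5571 were above 0. By library, the long pore transcripts had median log2 deviations of 0.03, 0.05 and 0.14 in WT and of −0.16, −0.26 and 0.16 in KO. KO replicates 1 and 2 were thus low and KO replicate 3 was as high as the highest WT library. The short ones stayed between −0.08 and 0.04 in every library. Without WT replicate 3 and KO replicate 1, the libraries rich in blood markers, the long pore transcripts had a median log2 fold change of −0.03, with 7 above and 8 below 0, and the short ones 0.07. Without WT replicate 1, 2 or 3 alone, the median of the long ones was −0.16, −0.15 or −0.08, with 13, 13 or 12 below 0. Without KO replicate 1, 2 or 3 alone it was −0.11, −0.04 or −0.25, with 11, 10 or 13 below 0. With offsets for length the median of the long ones was −0.09, with 3 above and 12 below 0. The lean of the long transcripts thus kept its direction without any single library, but its size varied with the libraries used. The part of blood content in it cannot be told apart from that of the libraries themselves. Ranbp2, the longest of the transcripts at 9.61 kb, had a log2 fold change of −0.37 with offsets for length, and Nup205 had −0.26. RNA integrity of the libraries is not given in the sources used here, and its part in this pattern was not tested.

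**Figure D4:**
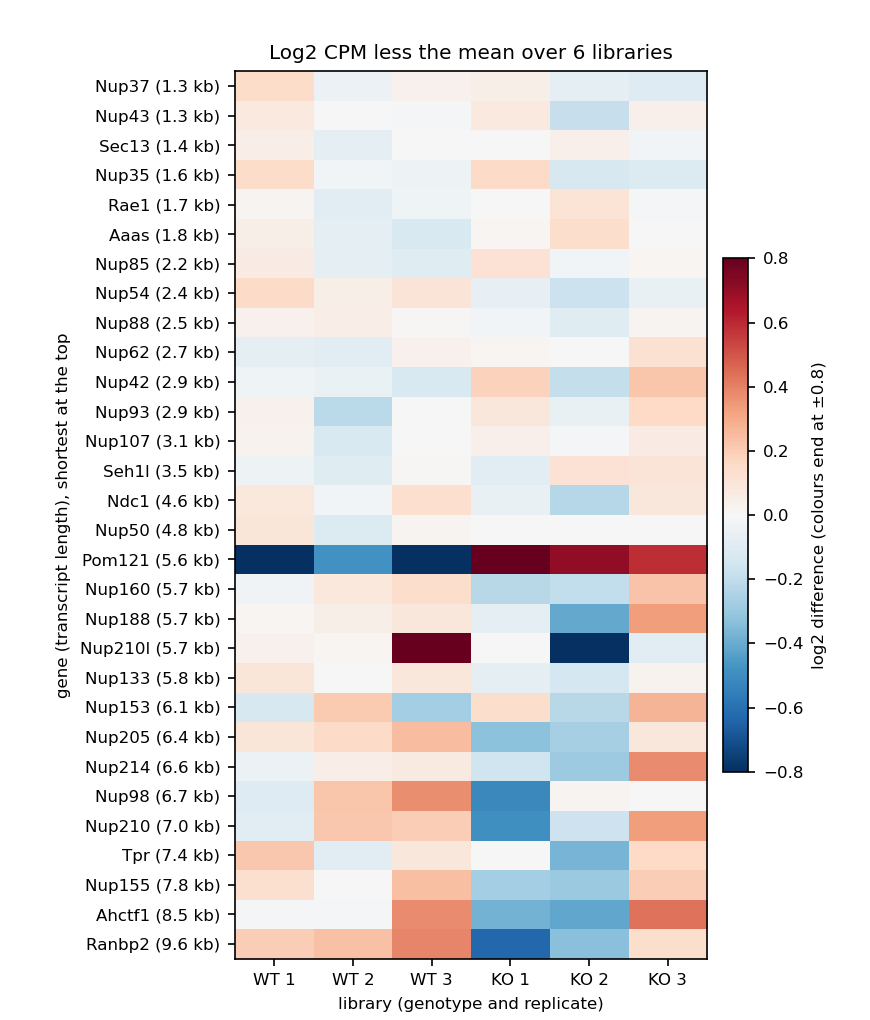
Log2 CPM of each tested nuclear pore gene less its mean over the 6 libraries (red above, blue below, colours ending at ±0.8), with genes ordered from the shortest transcript at the top to the longest at the bottom. Pom121 is low in all WT and high in all KO libraries, while the long transcripts in the lower rows are mostly low in KO replicates 1 and 2 and not in KO replicate 3.

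The other pore genes with a GC-rich stretch had small fold changes. Besides Pom121, 4 of them had 200 bases of at least 75% GC: Nup153 at 80%, Ahctf1 and Rae1 at 77.5% and Seh1l at 76.5%. Their log2 fold changes were 0.13, −0.20, 0.06 and 0.09, a median of 0.08, beside the median of 0.14 over all tested genes with such a stretch. The next richest, Tpr at 74.0%, Ndc1 at 73.5% and Nup205 at 73.0%, had −0.13, −0.13 and −0.32.

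**Figure D5:**
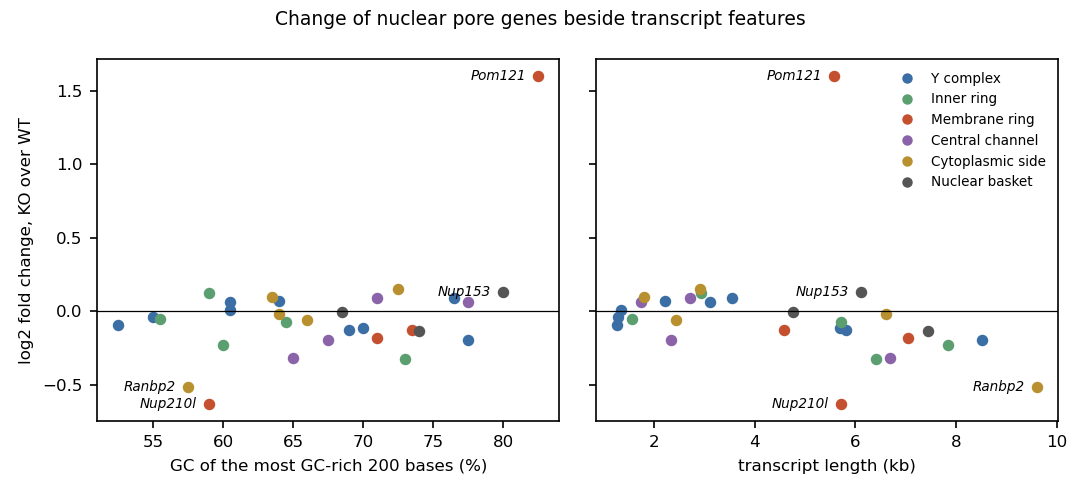
Log2 fold change, KO over WT, of the 30 tested nuclear pore genes against the GC share of the most GC-rich 200 bases of the transcript (left, %) and against transcript length (right, kb), with colour by subcomplex. Pom121 has both the highest GC share, 82.5%, and the highest fold change, and Ranbp2 has the longest transcript, 9.61 kb, and a log2 fold change of −0.52.

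Since miR-302 was the microRNA deleted, the 3′UTRs of the pore genes were read for matches to its seed, the bases by which a microRNA pairs with its targets. The mature miR-302b-3p and miR-302d-3p are shown so that the matches can be compared with them. They come from RefSeq (GRCm38.p6, chromosome 3, plus strand), with the seed, bases 2 to 8, in capitals. Their seed was the one searched. The locus also encodes miR-302a, miR-302c and miR-367, which are not shown. Members of the miR-302 family were shown only where the listed mature form holds this seed at bases 2 to 8. No other seed was searched, the different seed of miR-367 included.
miR-302b-3p: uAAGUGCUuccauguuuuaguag
miR-302d-3p: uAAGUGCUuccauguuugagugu

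A match to this seed, AGCACTT on the transcript's strand, was found in 2 of the 30 members searched. Nup155 held 2 matches, at bases 445 and 2412 of its 3′UTR, and Nup42 held 1 match followed by an A, at base 831. They are shown with 8 bases on either side and the match in capitals.
Nup155, base 445: ttaagtccAGCACTTggggaagc
Nup155, base 2412: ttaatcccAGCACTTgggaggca
Nup42, base 831: tgatgcccAGCACTTAggcatggg

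Nup155, with 2 matches, had a log2 fold change of −0.23, and Nup42, with 1, had 0.15. Neither passed edgeR's test, which no gene passed (0% of 16353). Pom121 had no match in the 1936 bases of its annotated 3′UTR, which says only that these letters are not in that stretch.

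The genes that work with the pore were read from lists of transport receptors, Ran cycle genes, mRNA export factors and genes of the nuclear envelope. By edgeR none of their genes was called, as was no gene at all (0% of 16353). DESeq2 called 606 genes higher in KO and 93 lower, 4.87% of the 14353 it tested. Of 24 tested importins, exportins and their kin, 8 were above and 16 below 0, with a median log2 fold change of −0.10. Ipo7, an importin for ribosomal proteins and histones, was at 60.8, 71.1 and 94.3 CPM in WT and 34.1, 58.9 and 41.0 CPM in KO, with every KO library below every WT library (log2 fold change −0.76, SE 0.24, edgeR adjusted p 0.281). DESeq2 called it, with an adjusted p of 0.035, as it did the importin alpha gene Kpna6 (−0.65, DESeq2 adjusted p 0.043), and no gene of this list in the other direction.

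Genes of the Ran cycle, which gives transport its direction, had fold changes near 0. All 6 tested lay between −0.03 and 0.06, and the largest was Ranbp1, which helps Ran to hydrolyse GTP on the cytoplasmic side, with 167, 142 and 156 CPM in WT and 171, 159 and 156 CPM in KO.

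Of 18 tested mRNA export genes, 8 were above 0, with a median of −0.02. Alyref, an adaptor that loads the export receptor onto mRNA, was far from the rest, at 13.5, 21.3 and 13.3 CPM in WT and 119.6, 92.4 and 43.7 CPM in KO. Its KO libraries were all above its WT libraries and differed widely among themselves (log2 fold change 2.41, SE 0.38, edgeR adjusted p 0.132), and DESeq2 called it. Like Pom121, it has a GC-rich stretch, at 80.5%, as has Tmpo (below) at 76.5%. The richest stretches of Ipo7 and Kpna6 reach 69.5% and 67.0%. Other genes of these lists with a stretch of at least 75% GC lay on both sides of 0. Above 0 were Lmnb1 (0.50), Lemd2 (0.20), Xpo6 (0.13), Ranbp1 (0.06) and Kpna4 (0.03). Below 0 were Xpo4 (−0.51), Sun2 (−0.15), Lemd3 (−0.10), Xpo1 (−0.10) and Ran (−0.03). Among the 16 genes of the envelope and lamina, 9 were above 0. Lmnb1, the B-type lamin to which the pores are tethered, had 47.2, 73.6 and 40.9 CPM in WT and 67.3, 81.1 and 79.99 CPM in KO, with overlapping genotypes (log2 fold change 0.50, SE 0.22, adjusted p 0.487). Tmpo, a lamin-binding protein of the inner membrane, had 391, 416 and 322 CPM in WT and 535, 479 and 473 CPM in KO without overlap (log2 fold change 0.40, edgeR adjusted p 0.239), and was the one gene of its list that DESeq2 called, with an adjusted p of 0.035.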

How the data were processed

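The authors removed low-quality bases, aligned reads with STAR to GRCm39 and counted reads per gene with GenomicAlignments; annotation, strand setting and versions are not given in the sources used here. The deposited values are raw counts of 55414 genes in 6 libraries. Symbols came from a table of identifiers (93.99% matched), with Nup42 and Nup58 found through synonyms. Counts were tested with edgeR 4.0.16 (filterByExpr, TMM, quasi-likelihood, R 4.3.3) on genotype alone, Benjamini-Hochberg over 16353 genes, threshold 0.05. DESeq2 1.42.0 was an alternative. Intervals are 95%. In counts simulated from these libraries over 16353 genes, edgeR recovered 61% and DESeq2 63% of 200 changed genes. In the libraries themselves edgeR called 0 of 16353 genes and DESeq2 699 of 14353. The share of changed genes that either tool recovers in the libraries themselves was not tested. Transcript lengths, GC and 3′UTRs came from GENCODE M21 (GRCm38). Members and lists were chosen with earlier results of these data known. Values per library were given for Pom121, the largest change in each subcomplex, the 5 highest and 5 lowest fold changes, and the highest and lowest level per length. Replicates of 1 genotype differed by more than sampling noise.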

Additional observations from a re-analysis of the deposited data

How the results depend on the processing

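Of 234 log2 fold changes of the 13 pore genes named by rule, under 18 alternatives, 227 kept their direction and side of the threshold, and 3, all of Pom121, passed it. Most alternatives, like the main fit, called no gene at all. In those no value could change its side, so only the direction was open to change. Pore genes called numbered 0 in edgeR, and 1, Pom121, with no filter on low counts (264 of 30187 genes called) or with DESeq2 (699 of 14353); leaving out 1 library each gave 0 to 1, with 1 without WT replicate 2 (217 of 17000 genes called). The number of pore genes whose genotypes did not overlap was 5, and it was 3 with DESeq2's size factors. It was 7 to 14 as single libraries were dropped (9 without WT replicate 1, 8 without KO replicate 1 or KO replicate 2, 14 without KO replicate 3). Fewer libraries then need to be separated. The share over all genes was not found under these alternatives, so nothing is read from the numbers. Without WT replicate 3 and KO replicate 1 together the number was 10, with the same limits. That last setting, like the offsets for length and for the most GC-rich stretch, was chosen after seeing the data. It turned Ahctf1 from −0.20 to 0.10, and the GC stretch offsets turned Nup153 from 0.13 to −0.14. Leaving out each library moved Sec13 between −0.0043 and 0.058 and Tpr between −0.22 and 0.018; the cause was not tested. Same-numbered libraries did not deviate together (correlations −0.21, 0.25 and 0.08), so the numbers were not taken as pairs; with the replicate block 0 pore genes were called, 6 passed an unadjusted p of 0.05 and the median was −0.06. With 3 libraries per genotype, several intervals reach beyond 0.5 on the log2 scale, so changes of that size lie within the intervals of such genes. In the main fit edgeR called 0 of 16353 genes, and Pom121 at 1.60 had an adjusted p of 0.13. The lack of a call therefore says little about any single gene.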
